A study of Chlorella sp. with 12 samples.

Results

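The 2 mild treatments of *Chlorella* sp. TLD6B, a green microalga isolated from the soil of the Taklimakan Desert, were compared with each other: Nacl1, grown in medium with 0.1 M NaCl, and PEG1, grown in medium with 0.05 g/mL PEG-6000. The comparison used 4 of the 12 RNA libraries of the study, 2 for each group, and all 4 were made from cells on day 18 of culture in Bold basal medium under a light-dark cycle. The other groups, with 2 libraries each, were CK0 (untreated, day 0), CK18 (untreated, day 18), Nacl2 (0.8 M NaCl, day 18) and PEG2 (0.1 g/mL PEG-6000, day 18). The libraries of a group are called replicate 1 and replicate 2 as their labels number them. The study calls them biological replicates. Whether they came from separate flasks is not given in the sources used here, and the p-values below measure the spread between these libraries. The hour of harvest within the light-dark cycle is not given in the sources used here.

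Sodium chloride lowers the water potential of the medium and at the same time brings ions into the cell, which algae answer by pumping sodium out, by taking up or retaining potassium and by making compatible solutes. Polyethylene glycol of this size stays outside the cell wall and lowers the water potential without delivering an ion. A direct comparison of the mild doses therefore asks which transcripts differ between ionic and non-ionic water stress, without the control libraries that the treatments share. The osmotic potential of the 2 media is not given in the sources used here, so the dose and the kind of stress cannot be told apart.

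Expression was given as FPKM, sequenced fragments scaled to unigene length and library depth. A unigene is a transcript cluster assembled from the reads without a genome, and 155503 of them were in the table. Levels below are FPKM as deposited, replicate 1 before replicate 2. Differences are log2 of Nacl1 over PEG1 after scaling and addition of 0.1, so a positive value means higher in Nacl1, and they understate the change of low genes. A unigene was called a DEG when limma gave a Benjamini-Hochberg adjusted p under 0.05 and the log2 difference was at least 1 in size. Because many unigenes were assembled for the same protein, the FPKM of all unigenes with the same KEGG Orthology identifier (KO) were also summed, and the same test was run on those KO sums. A feature under 0.3 FPKM in both libraries of one group could enter the test only through the other group, where it is high, so such features are given below as a description, without a p.

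Of 69234 unigenes tested, 3991 were higher in Nacl1 (5.76%) and 7411 were higher in PEG1 (10.7%), together 16.5%. Among 3104 KO sums tested, the balance was the opposite, with 364 higher in Nacl1 (11.7%) and 225 higher in PEG1 (7.25%), together 19%. The median log2 difference was -0.11 over the unigenes and -0.01 over the KO sums. With 1 of the 4 libraries left out and the same features tested, there were 194 to 298 KO sums higher in Nacl1 and 65 to 142 higher in PEG1, the lowest of both without Nacl1 replicate 2. Over unigenes, the log values of the 2 Nacl1 libraries correlated at r = 0.895 and those of the 2 PEG1 libraries at 0.875, and the correlations between the groups lay between 0.730 and 0.765. The Nacl1 libraries correlated with the CK18 libraries at 0.841 to 0.853 and the PEG1 libraries at 0.771 to 0.783. These correlations describe libraries that share 1 assembly, and unigenes are not independent.

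The 2 PEG1 libraries held a set of unigenes seen in no other culture of day 18. With a minimum of 0.3 FPKM in both PEG1 libraries and less than 0.1 in the other 8 libraries of that day, 4289 unigenes met this description, and 4281 of them were DEGs, which is 57.8% of the 7411 higher in PEG1. Since the set was chosen for its presence in PEG1, these calls are a description. Its summed FPKM was 16112 in replicate 1 (0.506% of the library) and 6640 in replicate 2 (0.205%). It was at most 1.57 in each of the other day 18 libraries and 119.9 in the higher of the CK0 libraries. The best protein hit was from a green alga for 11.2% of the set and from another taxon for 47%, and 41.8% had no hit. The most frequent hit species were barley (132 unigenes), the cryptophyte *Guillardia theta* (130), the moss *Physcomitrella patens* (99), the red alga *Galdieria sulphuraria* (95) and the haptophyte *Emiliania huxleyi* (85).

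The set also differed from the green algal unigenes in how it was divided between the 2 PEG1 libraries. The ratio of replicate 1 to replicate 2 had a median of 2.41 (quartiles 1.51 and 3.48), and 86.5% of the set was higher in replicate 1. For the 28686 other unigenes with a green algal hit and at least 0.3 FPKM in both libraries, the median ratio was 0.932 (quartiles 0.687 and 1.24). The set held 10 actin unigenes with 1844 FPKM in replicate 1 and 584 in replicate 2, and 77 unigenes of cytosolic ribosomal proteins, and 1 unigene for a chlorophyll, photosystem or Rubisco protein. All 6 unigenes with an assigned description that stood highest in PEG1 by log2 difference belonged to it. They were 5 short actin unigenes (224 bp for the most abundant, with 758 and 289 FPKM in PEG1) and the ribosomal protein unigene RPL39 (148 and 78.1 FPKM). All of them were listed at 0 in the other 8 day 18 libraries. Whether RNA of another organism was present in the PEG1 cultures was not tested, and in bulk RNA fewer cells of a kind and less RNA per cell cannot be told apart.

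**Figure D1:**
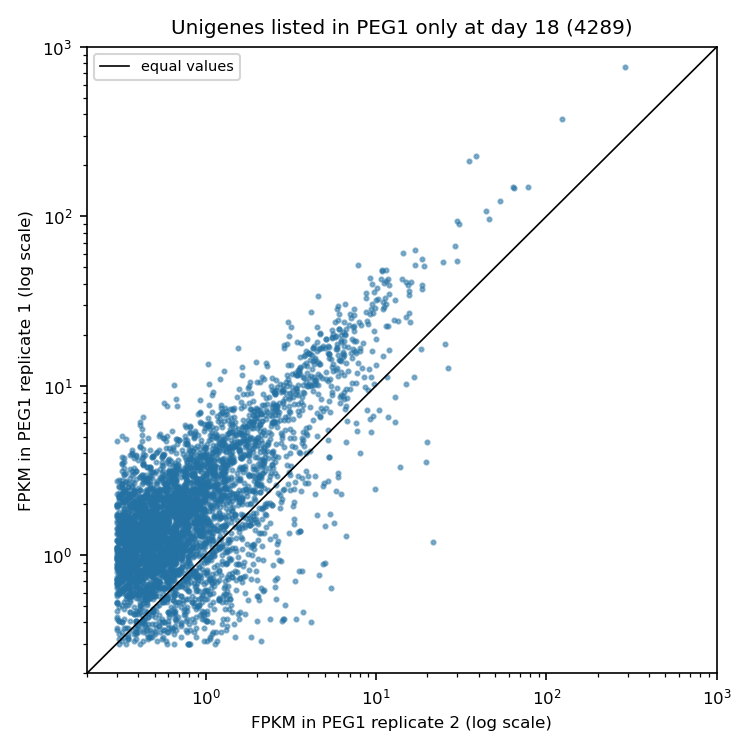
FPKM of the 4289 unigenes with at least 0.3 FPKM in both PEG1 libraries and less than 0.1 in the other 8 day 18 libraries, PEG1 replicate 2 on the x axis and replicate 1 on the y axis, both on log scales. Each point is 1 unigene and the line marks equal values; 86.5% of the points lie above it.

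For this reason the gene groups below were read mainly from KO sums, and the lists of KO sums were also computed from unigenes with a green algal hit alone, except carbonic anhydrases, which left no KO sum to test. The lists of single unigenes were not. Of the 364 KO sums higher in Nacl1, 360 could be tested on green algal unigenes and 345 were called again. Of the 225 higher in PEG1, 190 could be tested and 179 were called again. The defining genes of a green alga were abundant in all 4 libraries: the small subunit of Rubisco (rbcS) stood at 56215 and 48709 FPKM in Nacl1 and 105621 and 104760 in PEG1. Green algal hits carried 63 to 65.6% of the summed FPKM of the 4 libraries and hits to other taxa 2.43 to 2.84%.

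In ion transport, a sodium pump was higher in Nacl1. The alpha subunit of the sodium/potassium-transporting ATPase (ATP1A, K01539), a P-type pump that moves sodium out of the cell, stood at 632 and 379 FPKM in Nacl1 and 41.4 and 45.96 in PEG1, 10.6-fold higher in Nacl1 (log2 difference 3.40, SE 0.38, adjusted p = 0.0012). CK18 held 20.6 and 27.2 FPKM, Nacl2 1115 and 1041 and PEG2 6.67 and 14.9. Every library with NaCl was therefore above every library of day 18 without it, but the untreated cells of day 0 (CK0), at 371 and 394 FPKM, were as high as the lower of the Nacl1 libraries. The sum is made of 34 unigenes, 31 of them with a green algal hit, and of the 18 that could be tested 10 were higher in Nacl1 and 0 were higher in PEG1. The difference was larger at the higher doses, at 5.85 for Nacl2 against PEG2, and the difference of the 2 differences passed the test (-2.45, adjusted p = 0.00858). Among named unigenes, an ATP1A fragment (Cluster-31803.46384, 1458 bp) held 10.6 and 3.88 FPKM in Nacl1 and 0 and 0.2 in PEG1.

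The sodium and potassium transport list, which includes the ATP1A unigenes, held calls in both directions. Of 135 unigenes tested, 16 were higher in Nacl1 (11.9%, against 5.76% of all unigenes) and 8 higher in PEG1 (5.93%, against 10.7%), with a median of 0.25. The ATP1A unigenes, 10 of 18 of them higher in Nacl1, enter this share. It is therefore not a result separate from that of ATP1A. A unigene for the sodium/proton antiporter NhaA (Cluster-31803.46324), which exchanges sodium for protons, was at 82.3 and 74.9 FPKM in Nacl1 and 4.08 and 5.47 in PEG1 (log2 difference 4.05, SE 0.82, adjusted p = 0.0188). Its CK18 values were 51.4 and 59.3 FPKM, and Nacl1 lay nearer to them than PEG1. Of 37 sodium/hydrogen exchanger unigenes tested, 1 was higher in Nacl1 and 3 were higher in PEG1, both shares below those of all unigenes. Exchanger 8 (Cluster-31803.10254, 6249 bp) was listed at 0 in both Nacl1 libraries and held 9.21 and 11.9 FPKM in PEG1. A further exchanger 8 unigene (Cluster-31803.16576) was also listed at 0 in Nacl1 and held 7.78 and 3.97 FPKM in PEG1. At the higher doses the list was more one-sided, with 37 of 135 unigenes higher in Nacl2 and 2 in PEG2. Over all unigenes these shares were 11.1% and 11%.

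Proton pumps, which build the gradients that such antiporters use, showed no call among 12 KO sums (median 0.13). The most abundant, subunit H of the vacuolar ATPase (ATPeV1H), stood at 849 and 824 FPKM in Nacl1 and 915 and 924 in PEG1 (log2 difference -0.22, SE 0.11, adjusted p = 0.186). At the higher doses 9 of the 12 were higher in Nacl2 and 0 in PEG2, against 20.6% and 18% of all KO sums. Water channels and mechanosensitive channels gave 0 unigenes higher in Nacl1 and 1 in PEG1 of 36 tested, an aquaporin-1 unigene at 1.29 and 1.85 FPKM in Nacl1 and 7.44 and 6.64 in PEG1 (log2 difference -2.08, SE 0.48, adjusted p = 0.0292).

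**Figure D2:**
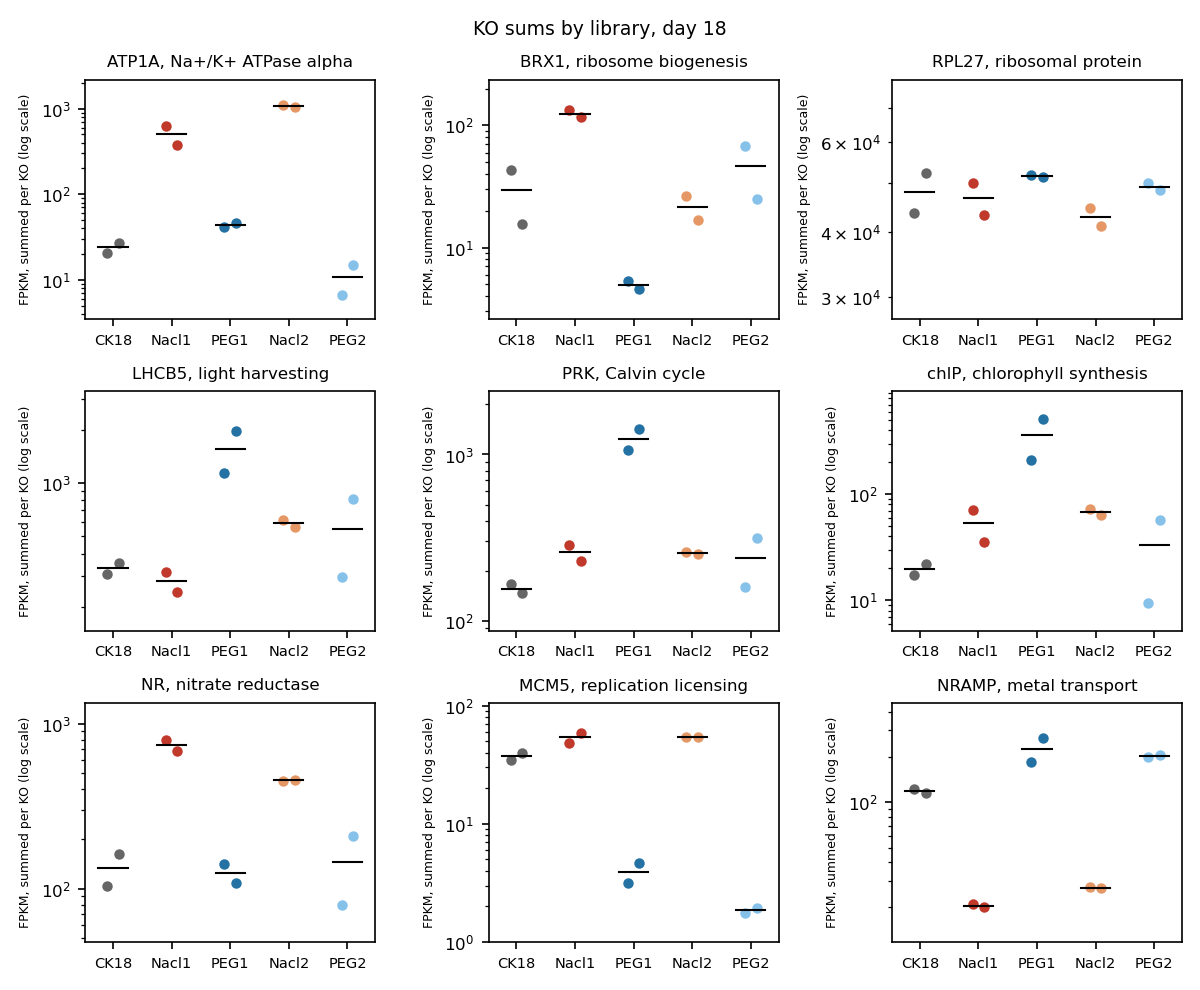
FPKM of 9 KO sums by library in CK18, Nacl1, PEG1, Nacl2 and PEG2, on log axes; each point is 1 library and the short line is the mean of the 2 libraries of a group. ATP1A is high in both NaCl groups, BRX1 is lowest in PEG1, and LHCB5, PRK and chlP are highest in PEG1.

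Ribosome biogenesis, the nucleolar proteins that cut, modify and fold ribosomal RNA and assemble the subunits, was higher in Nacl1. Of its 58 KO sums, 40 were higher in Nacl1 (69%, against 11.7% of all KO sums) and 0 were higher in PEG1. The median difference was 1.43, and 56 of the 58 were positive, with the lowest at -1.84. BRX1 (K14820), needed for the large subunit in yeast, stood at 133 and 117 FPKM in Nacl1 and 5.33 and 4.58 in PEG1, 23.4-fold higher in Nacl1 (log2 difference 4.55, SE 0.43, adjusted p = 0.000781). Its CK18 values of 43.2 and 15.6 FPKM lay between the 2 treatments. The pre-rRNA processing protein TSR2 (K14800) stood at 10.6 and 10.1 FPKM in Nacl1 and 0.73 and 1.21 in PEG1 (log2 difference 3.24, SE 0.49, adjusted p = 0.0034).

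The abundant members of the list gave the same picture with less spread. NOP56 and NOP58, core proteins of the snoRNPs that methylate ribosomal RNA, were among them, here given although outside the rule for named genes and chosen after their values were seen. NOP56 stood at 1082 and 1083 FPKM in Nacl1 and 294 and 297 in PEG1 (log2 difference 1.79, SE 0.16, adjusted p = 0.000637) and NOP58 at 921 and 910.4 FPKM in Nacl1 and 148 and 164 in PEG1 (log2 difference 2.47, SE 0.18, adjusted p = 0.000403). Pescadillo (PES1), which acts in large subunit maturation, stood at 315 and 314 FPKM in Nacl1 and 28.2 and 42.3 in PEG1 (log2 difference 3.10, SE 0.20, adjusted p = 0.000249). A nuclear prolyl isomerase outside the list, FPR3_4 (K14826), had 152 and 189.5 FPKM in Nacl1 and 10.8 and 10.02 in PEG1 (log2 difference 3.93, SE 0.41, adjusted p = 0.000995). FPR3_4 was named by a rule that asked for groups without overlap, and PES1, like NOP56 and NOP58, was outside the rule for named genes. The gap between the groups in these genes is therefore a description.

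The ribosomal proteins themselves did not follow. None of the 78 cytosolic ribosomal proteins was called in either direction. Their median was -0.02 and their range -0.30 to 0.51. RPL27, the most abundant, stood at 49871 and 43281 FPKM in Nacl1 and 51618 and 51176 in PEG1 (log2 difference -0.23, SE 0.07, adjusted p = 0.0556). Of 52 ribosomal proteins of chloroplast and mitochondrion tested, 1 was higher in each group. The one higher in Nacl1 was L7/L12 (K02935) at 207 and 182 FPKM in Nacl1 and 64.96 and 59.9 in PEG1 (log2 difference 1.56, SE 0.15, adjusted p = 0.000809).

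Set against the untreated cells of day 18, a comparison in which both treatments share the CK18 libraries, the median of the ribosome biogenesis list was 0.61 for Nacl1 and -0.99 for PEG1. For cytosolic ribosomal proteins these medians were -0.81 and -0.79. With 1 of the 4 libraries left out, 25 to 33 ribosome biogenesis KO sums were higher in Nacl1, with medians of 1.27 to 1.58, and 0 were higher in PEG1. The lowest counts were 25 without PEG1 replicate 1 and 26 without Nacl1 replicate 2, and with the base quality class of the libraries as a covariate the count was 35.

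**Figure D3:**
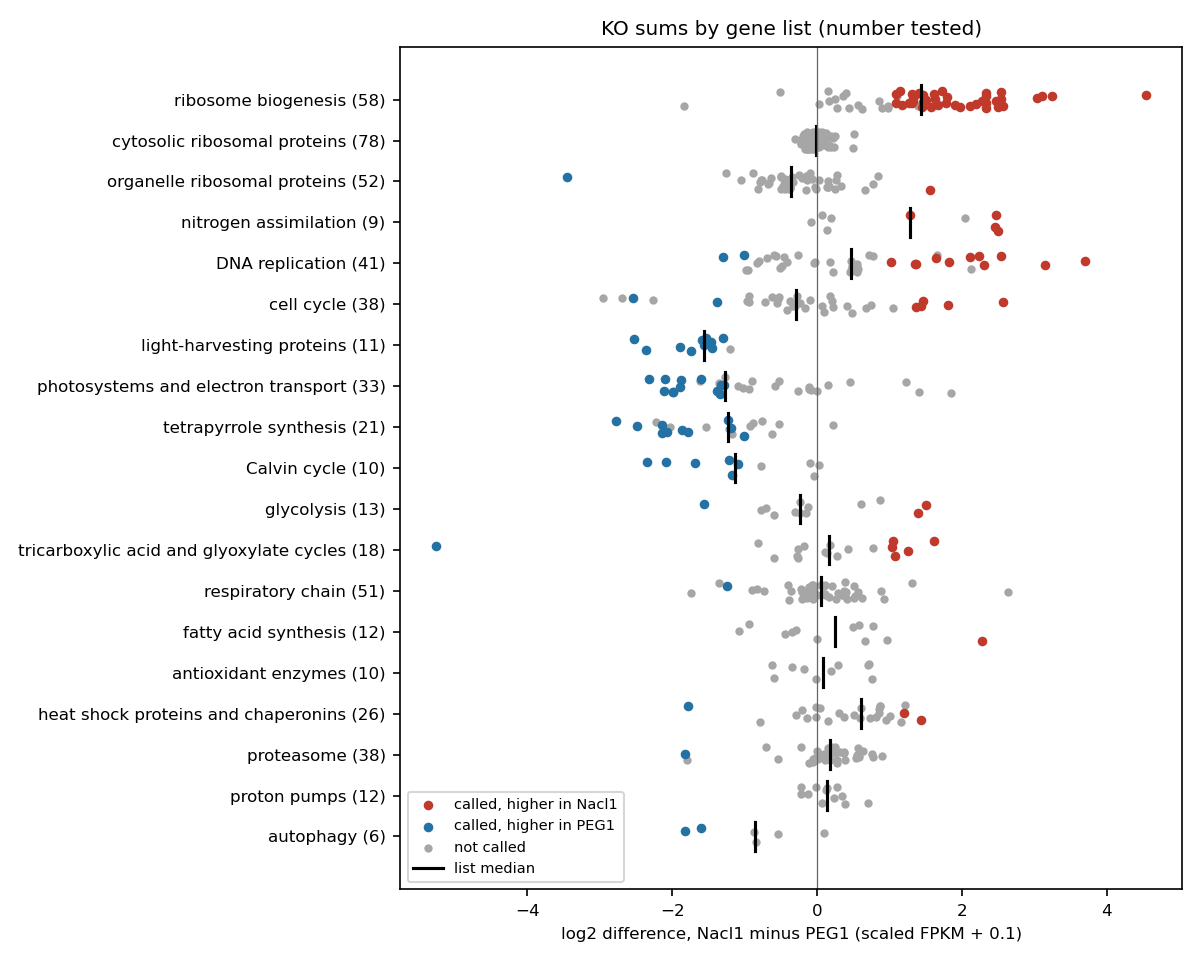
Log2 differences, Nacl1 over PEG1, of the KO sums of 19 gene lists; each point is 1 KO sum, red where it was called higher in Nacl1, blue where it was called higher in PEG1 and grey otherwise, and the bar is the median of the list. Ribosome biogenesis lies to the right at a median of 1.43, light-harvesting proteins to the left at -1.57, and cytosolic ribosomal proteins lie around -0.02.

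Photosynthesis genes differed in the opposite direction. Light-harvesting proteins, which bind chlorophyll and pass excitation energy to the reaction centres, were higher in PEG1 in 10 of 11 KO sums (90.9%, against 7.25% of all KO sums), with a median of -1.57. LHCB5 (K08916), a minor antenna of photosystem II, stood at 313 and 243 FPKM in Nacl1 and 1146 and 1976 in PEG1, 5.78-fold higher in PEG1 (log2 difference -2.53, SE 0.45, adjusted p = 0.00664). LHCB4 (K08915) stood at 429.6 and 262 FPKM in Nacl1 and 1250.5 and 2104 in PEG1 (log2 difference -2.36, SE 0.57, adjusted p = 0.0211). LHCB3 was the member that was not called (397 and 383 FPKM in Nacl1 and 600.6 and 1193 in PEG1, adjusted p = 0.0511). In all of them the groups did not overlap, and within PEG1 replicate 2 was above replicate 1. Groups of 2 libraries often do not overlap: by scaled values this held for 60.6% of all unigenes tested.

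Of 33 KO sums of the photosystems, electron transport and chloroplast ATP synthase, 12 were higher in PEG1 (36.4%) and 0 in Nacl1, with a median of -1.27. The subunits of the oxygen-evolving complex that splits water were among them: psbP stood at 676 and 451 FPKM in Nacl1 and 1931 and 3502 in PEG1 (log2 difference -2.32, SE 0.48, adjusted p = 0.0117) and psbR at 1370.1 and 1034 FPKM in Nacl1 and 3825 and 6224 in PEG1 (log2 difference -2.12, SE 0.45, adjusted p = 0.0136). Plastocyanin (petE), the copper protein that carries electrons to photosystem I, stood at 1503 and 1478 FPKM in Nacl1 and 4329 and 6342 in PEG1. The Rieske protein petC stood at 3179 and 2921 FPKM in Nacl1 and 6948 and 7086 in PEG1 (adjusted p = 0.00132), with PEG1 replicates closer together than for the antenna genes. The last 2 genes were outside the rule for named genes and chosen after their values were seen.

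Tetrapyrrole synthesis, which makes chlorophyll and heme, had 10 of 21 KO sums higher in PEG1 (47.6%) and 0 higher in Nacl1, with a median of -1.23. Geranylgeranyl reductase (chlP, K10960), which makes the phytyl tail of chlorophyll, stood at 71.5 and 35.6 FPKM in Nacl1 and 212 and 507 in PEG1 (log2 difference -2.78, SE 0.80, adjusted p = 0.0388). The aminomutase hemL, an early enzyme that forms 5-aminolevulinate, stood at 121 and 83.98 FPKM in Nacl1 and 391 and 736 in PEG1 (log2 difference -2.49, SE 0.63, adjusted p = 0.0248). Both were far higher in PEG1 replicate 2 than in replicate 1. Against CK18 the median of the list was 0.52 for Nacl1 and 2.12 for PEG1, with shared CK18 libraries, so both treatments were above the untreated cells and PEG1 the more so. For light-harvesting proteins the same medians were -0.90 and 0.77.

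The Calvin cycle, which fixes CO2, had 6 of 10 KO sums higher in PEG1 (60%) and 0 in Nacl1. Phosphoribulokinase (PRK, K00855), which regenerates the CO2 acceptor, stood at 287 and 229 FPKM in Nacl1 and 1061 and 1423 in PEG1, 5.07-fold higher in PEG1 (log2 difference -2.34, SE 0.31, adjusted p = 0.00208). Phosphoglycerate kinase (PGK) stood at 270.1 and 250.3 FPKM in Nacl1 and 912 and 1191 in PEG1 (log2 difference -2.09, SE 0.36, adjusted p = 0.00555). Rubisco's small subunit, with the values given above, differed by -1.09 (adjusted p = 0.00107). Ribose 5-phosphate isomerase (rpiA) had 120.2 and 114 FPKM in Nacl1 and 121 and 115 in PEG1 and was not called (adjusted p = 0.696).

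The antenna and photosystem calls depended on having all 4 libraries. With any 1 of them left out, 0 or 1 light-harvesting KO sums were called, with list medians between -1.19 (without PEG1 replicate 2) and -1.88 (without PEG1 replicate 1). For the photosystem list 1 to 3 were higher in PEG1, with medians between -0.85 and -1.55, and 1 was higher in Nacl1 without either PEG1 library. Tetrapyrrole synthesis kept 2 to 7 calls and the Calvin cycle 2 to 4. PEG1 replicate 2 belonged to a higher base quality class than the other 3 libraries. With that class as a covariate, 1 light-harvesting, 3 photosystem, 5 tetrapyrrole and 4 Calvin cycle KO sums were higher in PEG1, and the part of base quality in these values was not tested further.

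Nitrogen assimilation was higher in Nacl1 in 4 of 9 KO sums (44.4%) and higher in PEG1 in 0, with a median of 1.28. Nitrate reductase (NR, K10534), which turns nitrate into nitrite, stood at 795 and 684 FPKM in Nacl1 and 140.3 and 108 in PEG1 (log2 difference 2.50, SE 0.41, adjusted p = 0.00481). The nitrate and nitrite transporter NRT (K02575) stood at 731 and 695 FPKM in Nacl1 and 143 and 103 in PEG1 (log2 difference 2.47, SE 0.32, adjusted p = 0.002). They were 5.64-fold and 5.56-fold higher in Nacl1. In CK18, NR stood at 104 and 163 FPKM and NRT at 47.5 and 53.02. The NADH-dependent glutamate synthase GLT1 (K00264), chosen after its values were seen, stood at 244 and 215 FPKM in Nacl1 and 42.96 and 36.1 in PEG1 (log2 difference 2.46, SE 0.17, adjusted p = 0.000346).

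The enzymes that take up ammonium differed less. Glutamine synthetase stood at 2346 and 2146 FPKM in Nacl1 and 1947 and 1777 in PEG1 (log2 difference 0.19, SE 0.47, adjusted p = 0.81), and the ferredoxin-dependent glutamate synthase at 626 and 657 FPKM in Nacl1 and 531 and 570.1 in PEG1 (adjusted p = 0.572). Ammonium transporters, summed by KO, stood at 2778 and 1832 FPKM in Nacl1 and 2474 and 1656 in PEG1 (log2 difference 0.07, SE 0.39, adjusted p = 0.919). A single ammonium transporter unigene, AMT1-3 (Cluster-31803.24693), was among the unigenes with the largest difference, with 144 and 30.7 FPKM in Nacl1 and a listed 0 in both PEG1 libraries. The sum over its KO, given above, did not pass the test.

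Of 41 KO sums of DNA replication, 11 were higher in Nacl1 (26.8%, against 11.7% of all KO sums) and 2 higher in PEG1 (4.88%, against 7.25%). The licensing factor MCM5 (K02209), part of the helicase that opens origins, stood at 48.7 and 59.01 FPKM in Nacl1 and 3.13 and 4.67 in PEG1, 12.9-fold higher in Nacl1 (log2 difference 3.69, SE 0.26, adjusted p = 0.000346). MCM2 (K02540) stood at 9.03 and 8.81 FPKM in Nacl1 and 1.71 and 1.08 in PEG1 (log2 difference 2.54, SE 0.38, adjusted p = 0.00318). MCM7 (K02210), of the same helicase, went the other way, with 11.4 and 9.96 FPKM in Nacl1 and 17.3 and 24.02 in PEG1 (log2 difference -1.01, SE 0.22, adjusted p = 0.0142). Replication factor A2, a single-strand binding protein, was also higher in PEG1, with 3.81 and 2.95 FPKM in Nacl1 and 8.31 and 7.54 in PEG1 (log2 difference -1.29, SE 0.37, adjusted p = 0.0369). Most of the other calls were of genes under 5 FPKM in both groups. With 1 library left out the calls toward Nacl1 were 4 without Nacl1 replicate 1, 3 without Nacl1 replicate 2, 6 without PEG1 replicate 1 and 5 without PEG1 replicate 2, while 1 call toward PEG1 was left without PEG1 replicate 1 and 0 without any of the others.

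Of 38 cell cycle KO sums, 5 were higher in Nacl1 (13.2%) and 2 in PEG1 (5.26%), shares near the 11.7% and 7.25% of all KO sums, so the list as a whole did not stand out and its called members are given singly. CDC20, the activator of the anaphase-promoting complex, stood at 4.22 and 3.41 FPKM in Nacl1 and 27.1 and 16.9 in PEG1 (log2 difference -2.55, SE 0.32, adjusted p = 0.0018), and the kinase subunit CKS1 at 18.1 and 20.7 FPKM in Nacl1 and 56.7 and 40.3 in PEG1 (log2 difference -1.38, SE 0.28, adjusted p = 0.0104), both higher in PEG1. The condensin subunit SMC4 stood at 17.7 and 30.9 FPKM in Nacl1 and 8.46 and 7.79 in PEG1 (log2 difference 1.43, SE 0.31, adjusted p = 0.0139) and the cohesin subunit SMC3 at 6.36 and 5.42 FPKM in Nacl1 and 1.56 and 2.45 in PEG1 (log2 difference 1.46, SE 0.42, adjusted p = 0.0392), both higher in Nacl1. A cyclin-dependent kinase (K07760) had 9.99 and 10.5 FPKM in Nacl1 and 0.75 and 0.34 in PEG1 (log2 difference 3.99, SE 0.45, adjusted p = 0.00128). With 1 library left out, 0 to 2 cell cycle KO sums were higher in Nacl1 and 1 or 2 in PEG1, with 0 higher in Nacl1 without Nacl1 replicate 2. At the higher doses the replication list was one-sided, with 24 KO sums higher in Nacl2 and 0 in PEG2, and the cell cycle list had 17 and 0. Over all KO sums 20.6% were higher in Nacl2 and 18% in PEG2. None of the 5 histone KO sums was called, histone H3 standing at 1819 and 2298 FPKM in Nacl1 and 1809 and 1725 in PEG1 (log2 difference 0.13, SE 0.15, adjusted p = 0.573).

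In central carbon metabolism, calls of glycolysis went both ways. Class I aldolase (ALDO), which also serves the Calvin cycle, stood at 3613 and 3699.7 FPKM in Nacl1 and 9771 and 10699.8 in PEG1 (log2 difference -1.57, SE 0.19, adjusted p = 0.0017). The NAD-dependent glyceraldehyde 3-phosphate dehydrogenase GAPDH stood at 462 and 382 FPKM in Nacl1 and 177 and 128 in PEG1 (log2 difference 1.39, SE 0.28, adjusted p = 0.0108) and the non-phosphorylating gapN at 19.7 and 30.6 FPKM in Nacl1 and 8.24 and 8.02 in PEG1 (log2 difference 1.501, SE 0.31, adjusted p = 0.0112), both higher in Nacl1. In all, 2 of 13 glycolysis KO sums were higher in Nacl1 (15.4%, against 11.7% of all KO sums) and 1 in PEG1 (7.69%, against 7.25%). When a library was left out the calls toward PEG1 stayed at 1, while 1 KO sum was higher in Nacl1 without Nacl1 replicate 1 and 0 without any of the others. In the pentose phosphate pathway 6-phosphogluconate dehydrogenase (PGD, K00033), which yields NADPH, stood at 170.1 and 181 FPKM in Nacl1 and 16.7 and 10.4 in PEG1 (log2 difference 3.64, SE 0.27, adjusted p = 0.000423), and transaldolase at 232 and 172 FPKM in Nacl1 and 357 and 523 in PEG1 (log2 difference -1.19, SE 0.29, adjusted p = 0.0222). The transaldolase call was lost with any 1 library left out.

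Of 18 KO sums of the tricarboxylic acid and glyoxylate cycles, 5 were higher in Nacl1 (27.8%, against 11.7% of all KO sums). Malate dehydrogenase MDH1 stood at 221 and 251 FPKM in Nacl1 and 87.1 and 60.5 in PEG1 (log2 difference 1.61, SE 0.33, adjusted p = 0.0118), and the alpha subunit of succinyl-CoA synthetase (LSC1) at 25.4 and 23.1 FPKM in Nacl1 and 10.2 and 8.98 in PEG1 (log2 difference 1.25, SE 0.18, adjusted p = 0.00285). The 1 member higher in PEG1 was class I fumarate hydratase, listed at 0 in Nacl1 and CK18 and at 4.78 and 3 FPKM in PEG1. With 1 library left out, 2 to 4 members were higher in Nacl1, 4 of them without PEG1 replicate 1 and 2 without each of the others. The starch list had 1 call among 9 KO sums (11.1%, near the 11.7% of all KO sums higher in Nacl1) and did not stand out. The call was of the first committed enzyme of starch synthesis, ADP-glucose pyrophosphorylase (glgC), with 521 and 522 FPKM in Nacl1 and 189 and 176 in PEG1 (log2 difference 1.43, SE 0.15, adjusted p = 0.00107). Of 51 respiratory chain KO sums, 0 were higher in Nacl1 and 1 in PEG1, the complex I assembly factor NDUFAF5 with 72.6 and 58.1 FPKM in Nacl1 and 154 and 138 in PEG1 (log2 difference -1.25, SE 0.17, adjusted p = 0.00235).

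Calls among genes of lipid synthesis were near or below the shares of all KO sums (11.7% higher in Nacl1 and 7.25% in PEG1). These lists therefore did not stand out. Fatty acid synthesis had 1 call among 12 KO sums (8.33%), the acyl-ACP thioesterase FATA, which ends chain growth. FATA stood at 6.1 and 7.95 FPKM in Nacl1 and 0.76 and 2.09 in PEG1 (log2 difference 2.28, SE 0.50, adjusted p = 0.0143). None of 6 desaturases was called. The most abundant, the omega-3 desaturase FAD8, stood at 559.5 and 652 FPKM in Nacl1 and 287 and 461 in PEG1 (log2 difference 0.65, SE 0.22, adjusted p = 0.064). In glycerolipid assembly, 1 of 12 KO sums was higher in each group (8.33% each). The plastid acyltransferase ATS1 was higher in PEG1 (89.5 and 79.1 FPKM in Nacl1 and 135 and 261 in PEG1, adjusted p = 0.0489). Digalactosyldiacylglycerol synthase was higher in Nacl1 (107 and 138 FPKM in Nacl1 and 51.9 and 62.3 in PEG1, adjusted p = 0.00848). With any 1 library left out, 0 glycerolipid KO sums were higher in PEG1, and 0 were higher in Nacl1 without Nacl1 replicate 2 or PEG1 replicate 1. In fatty acid synthesis 0 were called without Nacl1 replicate 1, Nacl1 replicate 2 or PEG1 replicate 1.

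Genes that break fatty acids down were higher in Nacl1 where they were called, in 2 of 7 KO sums (28.6%, against 11.7% of all KO sums). The peroxisomal fatty acid importer PXA stood at 86.8 and 83.8 FPKM in Nacl1 and 31.7 and 22.4 in PEG1 (log2 difference 1.59, SE 0.23, adjusted p = 0.00268) and acyl-CoA dehydrogenase at 114 and 121 FPKM in Nacl1 and 35.7 and 46.02 in PEG1 (log2 difference 1.45, SE 0.38, adjusted p = 0.0286). Outside that list, the enoyl-CoA isomerase DCI, which prepares unsaturated chains for beta-oxidation, stood at 169 and 169 FPKM in Nacl1 and 15.9 and 15.2 in PEG1, 10.2-fold higher in Nacl1 (log2 difference 3.35, SE 0.17, adjusted p = 0.000224), with replicates that hardly differed. With any 1 library left out, 1 KO sum of the beta-oxidation list was higher in Nacl1.

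Unigenes of carbon and lipid metabolism that had been picked for qRT-PCR were read in the same way. Triosephosphate isomerase (Cluster-31803.69560) stood at 57.2 and 59.5 FPKM in Nacl1 and 16.7 and 19.6 in PEG1 (log2 difference 1.71, SE 0.38, adjusted p = 0.0245), and pyruvate kinase (Cluster-31803.75598) at 72.9 and 61.6 FPKM in Nacl1 and 23.2 and 31.8 in PEG1 (log2 difference 1.33, SE 0.25, adjusted p = 0.0138), both higher in Nacl1. The chloroplast GAPD unigene (Cluster-31803.26513) was higher in PEG1, with 11047 and 9848 FPKM in Nacl1 and 27349.6 and 35538 in PEG1 (log2 difference -1.55, SE 0.36, adjusted p = 0.0297). BCCP, a subunit of acetyl-CoA carboxylase, stood at 16.2 and 31.99 FPKM in Nacl1 and 27.1 and 36.2 in PEG1 (adjusted p = 0.582), and KAS II at 9 and 9.59 FPKM in Nacl1 and 3.22 and 9.92 in PEG1 (adjusted p = 0.692). Neither these nor the unigenes for PEPC (adjusted p = 0.672) and PDC/PDH (adjusted p = 0.982) passed the test. The 6PGDH unigene was below the minimum of 0.3 FPKM in 3 of the 4 libraries and was not tested.

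Compatible solutes and polyamines differed in a few enzymes. Ornithine decarboxylase (ODC1), which makes putrescine, stood at 1567 and 2431 FPKM in Nacl1 and 348 and 449.7 in PEG1 (log2 difference 2.22, SE 0.53, adjusted p = 0.0199). Spermidine synthase (speE), the next step, stood at 153 and 175 FPKM in Nacl1 and 49.7 and 46.3 in PEG1 (log2 difference 1.68, SE 0.24, adjusted p = 0.00266). They were the 2 calls among 8 KO sums of proline and polyamine synthesis (25%, against 11.7% of all KO sums), both higher in Nacl1. Sucrose synthase was higher in Nacl1 (87.5 and 96.8 FPKM in Nacl1 and 28.5 and 26.98 in PEG1, log2 difference 1.64, SE 0.18, adjusted p = 0.0012). Trehalose 6-phosphate synthase was higher in PEG1 (127 and 121 FPKM in Nacl1 and 239.5 and 231 in PEG1, log2 difference -1.01, SE 0.15, adjusted p = 0.0034), as was glycerol kinase (7.32 and 4.13 FPKM in Nacl1 and 15.03 and 12.99 in PEG1, log2 difference -1.41, SE 0.32, adjusted p = 0.0162). In the list of these 3 enzymes, 1 of 8 KO sums was higher in Nacl1 (12.5%, against 11.7%) and 2 in PEG1 (25%, against 7.25%). When a library was left out, 1 KO sum of proline and polyamine synthesis was called, except without PEG1 replicate 2, when both were. The calls toward PEG1 in the list of glycerol, trehalose and sucrose fell from 2 to 1 without Nacl1 replicate 2 or PEG1 replicate 2 and to 0 without PEG1 replicate 1.

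Antioxidant enzymes gave no call among 10 KO sums, with a median of 0.08 and a range from -0.63 to 0.76. Catalase, which removes hydrogen peroxide, stood at 258 and 279.8 FPKM in Nacl1 and 175 and 127 in PEG1 (adjusted p = 0.0565), and the iron and manganese superoxide dismutases at 254.3 and 296 FPKM in Nacl1 and 207 and 334 in PEG1 (adjusted p = 0.974). Glutathione S-transferases, summed over 68 unigenes, were higher in Nacl1 (756 and 859 FPKM in Nacl1 and 365 and 375 in PEG1, log2 difference 1.04, SE 0.17, adjusted p = 0.00433). They were the only call among 8 KO sums of glutathione metabolism (12.5%, near the 11.7% of all KO sums higher in Nacl1). Sulfite reductase, with 189 and 184.4 FPKM in Nacl1 and 83.7 and 82.8 in PEG1 (log2 difference 1.08, SE 0.22, adjusted p = 0.0102), and cystathionine beta-lyase (metC), with 125 and 150.2 FPKM in Nacl1 and 33.6 and 37.5 in PEG1 (log2 difference 1.87, SE 0.19, adjusted p = 0.000975), were the only calls of sulfur assimilation (12.5%) and of the methionine cycle (11.1%). Both were higher in Nacl1. None of these 3 lists stood out from all KO sums. The sulfur assimilation list had 0 calls without Nacl1 replicate 2 or either PEG1 library, and the glutathione list 0 without Nacl1 replicate 2 or PEG1 replicate 2.

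Of 26 heat shock and chaperonin KO sums, 2 were higher in Nacl1 (7.69%, against 11.7% of all KO sums) and 1 in PEG1 (3.85%, against 7.25%). Their median was 0.60, and 19 of them were positive. From green algal unigenes alone, 6 of 26 were higher in Nacl1 and 1 in PEG1, when 377 and 224 KO sums were called over all. The chaperonin subunits CCT7 (95.5 and 102 FPKM in Nacl1 and 45.4 and 35.97 in PEG1, adjusted p = 0.026) and CCT8 (24.3 and 21.7 FPKM in Nacl1 and 104 and 54 in PEG1, adjusted p = 0.0243), which belong to 1 complex, were called in opposite directions. With any 1 library left out, 1 KO sum of the list was higher in Nacl1 and 0 in PEG1. HSP90A stood at 341 and 436 FPKM in Nacl1 and 150.4 and 120.0 in PEG1 (log2 difference 1.44, SE 0.20, adjusted p = 0.0026), but from green algal unigenes alone its difference was 0.17 (adjusted p = 0.82). Ethylene receptor and proteasome PSMA2 sums, called higher in PEG1 at -2.07 and -1.83, turned positive from green algal unigenes alone, at 0.54 and 0.28. Actin (ACTF) stood at 434 and 319 FPKM in Nacl1 and 2756 and 1601 in PEG1, a difference of -2.58 that was -1.29 from green algal unigenes alone and still passed the test (adjusted p = 0.0011).

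Of 6 autophagy KO sums 2 were higher in PEG1 (33.3%, against 7.25% of all KO sums), with or without any 1 library. ATG9, the membrane protein that feeds the forming autophagosome, stood at 29.98 and 22.7 FPKM in Nacl1 and 92.6 and 82.6 in PEG1 (log2 difference -1.82, SE 0.23, adjusted p = 0.0017), and ATG16L at 30.5 and 25.3 FPKM in Nacl1 and 80.3 and 79.4 in PEG1 (log2 difference -1.60, SE 0.19, adjusted p = 0.00147). In a list of kinases, phosphatases and receptors of plant-like signaling, 3 of 10 KO sums were higher in PEG1, the ethylene receptor among them, and 0 or 1 with 1 library left out (0 without Nacl1 replicate 2). The 3 calls of this list are 30%, against 7.25% of all KO sums. From green algal unigenes alone 2 of 10 were higher in PEG1, and the ethylene receptor was not among them. Mitogen-activated protein kinase MPK6 stood at 66.3 and 40.5 FPKM in Nacl1 and 138 and 106 in PEG1 (log2 difference -1.31, SE 0.27, adjusted p = 0.0116). The proteasome, in contrast, had 0 of 38 KO sums higher in Nacl1 and only PSMA2 higher in PEG1, a call lost with any 1 library left out, while at the higher doses 25 were higher in Nacl2 and 1 in PEG2. Over all KO sums at the higher doses, 20.6% were higher in Nacl2 and 18% in PEG2. A palmitoyl-protein thioesterase (PPT, K01074), which removes fatty acids from proteins, stood at 25.3 and 18.1 FPKM in Nacl1 and 276 and 282 in PEG1, 13.7-fold higher in PEG1 (log2 difference -3.78, SE 0.24, adjusted p = 0.000249).

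The metal transporter NRAMP (K12347), which carries iron and manganese, stood at 20.95 and 20.01 FPKM in Nacl1 and 186 and 267 in PEG1, 11.5-fold higher in PEG1 (log2 difference -3.52, SE 0.19, adjusted p = 0.000224). From green algal unigenes alone the difference was -2.13 (adjusted p = 0.0056). Both PEG2 libraries, at 199 and 207 FPKM, were as high, and both Nacl2 libraries, at 27.3 and 26.9, as low as the mild dose of the same agent. CK18, at 122 and 115 FPKM, lay between the 2 mild treatments, and CK0, at 18.4 and 22.1, was about as low as Nacl1. Iron storage was split between unigenes of the same protein: ferritin-3 held 4.65 and 7.35 FPKM in Nacl1 and 20.7 and 19.9 in PEG1 in Cluster-31803.53764 (log2 difference -1.75, SE 0.37, adjusted p = 0.0226) and 11.9 and 19.3 FPKM in Nacl1 and 0.74 and 2.84 in PEG1 in Cluster-31803.74684 (log2 difference 3.30, SE 0.87, adjusted p = 0.0475). A melanotransferrin unigene (Cluster-31803.17427), of a protein family that binds iron, held 7.68 and 3.44 FPKM in Nacl1 and 0 and 0.07 in PEG1 and 804 and 616 FPKM in Nacl2.

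Phosphate acquisition had 7 of 129 unigenes higher in Nacl1 (5.43%) and 16 higher in PEG1 (12.4%), close to the shares of all unigenes. The purple acid phosphatase 28 unigene (Cluster-31803.60098), of a family that frees phosphate from organic esters, was nearly absent in Nacl1, with 0.21 and 0.39 FPKM in Nacl1 and 52.1 and 35.04 in PEG1 (log2 difference -6.70, SE 0.43, adjusted p = 0.0023). CK18 held 241.5 and 253.9 FPKM of it, PEG2 154 and 112 and Nacl2 was listed at 0, so all libraries with NaCl lay below all others of day 18, but the day 0 libraries (CK0) held 1.23 and 0. A sodium-dependent phosphate transporter unigene (Cluster-31803.78687) was higher in Nacl1, with 14.2 and 11.3 FPKM in Nacl1 and 2.57 and 0.88 in PEG1 (log2 difference 2.99, SE 0.55, adjusted p = 0.0126).

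The remaining phosphatases and KO sums named by the same rule were scattered over functions. Purple acid phosphatase 23 (Cluster-31803.9128) was higher in PEG1, with 3.83 and 2.99 FPKM in Nacl1 and 18.5 and 12.4 in PEG1 (log2 difference -2.09, SE 0.39, adjusted p = 0.0137), but the sum over all unigenes with its protein hit was higher in Nacl1, at 0.48. An iron/zinc purple acid phosphatase (Cluster-31803.91793) was higher in Nacl1, with 13.6 and 13.2 FPKM in Nacl1 and 2.09 and 1.59 in PEG1 (log2 difference 2.82, SE 0.35, adjusted p = 0.00353). The splicing protein SNRNP27 stood at 15.1 and 14.3 FPKM in Nacl1 and 0 and 0.53 in PEG1 (log2 difference 5.81, SE 0.77, adjusted p = 0.00211). Higher in PEG1 were the beta-xylosidase XYL4, which cleaves xylose from wall polymers (1.36 and 1.61 FPKM in Nacl1 and 15.5 and 18.01 in PEG1, log2 difference -3.49, SE 0.33, adjusted p = 0.0008), a neomenthol dehydrogenase (0.96 and 0.88 FPKM in Nacl1 and 14.5 and 16.8 in PEG1, log2 difference -4.02, SE 0.45, adjusted p = 0.0012) and the helicase DHX57 (0.93 and 1.91 FPKM in Nacl1 and 6.32 and 14.9 in PEG1, log2 difference -2.84, SE 0.61, adjusted p = 0.0136).

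The MEP pathway, which makes the precursors of carotenoids and of the chlorophyll tail, was listed with the carotenoid enzymes. Of these 20 KO sums, 3 were higher in PEG1 (15%, against 7.25% of all KO sums) and 1 in Nacl1 (5%, against 11.7%). The MEP enzyme ispD stood at 4.09 and 3.07 FPKM in Nacl1 and 8.46 and 11.9 in PEG1 (log2 difference -1.55, SE 0.27, adjusted p = 0.00639), and isopentenyl-diphosphate isomerase at 30.2 and 20 FPKM in Nacl1 and 54.9 and 57.6 in PEG1 (log2 difference -1.27, SE 0.28, adjusted p = 0.0146). The carotene hydroxylase LUT5, an enzyme of lutein synthesis, was higher in Nacl1, with 75.1 and 90.5 FPKM in Nacl1 and 20.3 and 24.6 in PEG1 (log2 difference 1.80, SE 0.21, adjusted p = 0.00143). With 1 library left out, 0 to 4 KO sums of the list were higher in PEG1, 0 of them without Nacl1 replicate 2 and without PEG1 replicate 2. Of the 2 carbonic anhydrase KO sums none was called.

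The mild comparison was then set beside the same comparison at the higher doses, Nacl2 against PEG2, which shares no library with it but the estimate of the spread. At the higher doses 7689 unigenes were higher in Nacl2 (11.1%) and 7599 in PEG2 (11%), together 22.1%, and 639 KO sums were higher in Nacl2 (20.6%) and 558 in PEG2 (18%), together 38.6%. Of the 364 KO sums higher in Nacl1, 100 (27.5%) were also higher in Nacl2 and 55 were higher in PEG2. Of the 225 higher in PEG1, 65 (28.9%) were also higher in PEG2 and 29 were higher in Nacl2. The 165 KO sums called in the same direction at both doses are 28.0% of the mild calls and 13.8% of the calls at the higher doses. The difference of the 2 differences passed the test for 1204 KO sums (38.8%) and 13744 unigenes (19.9%).

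**Figure D4:**
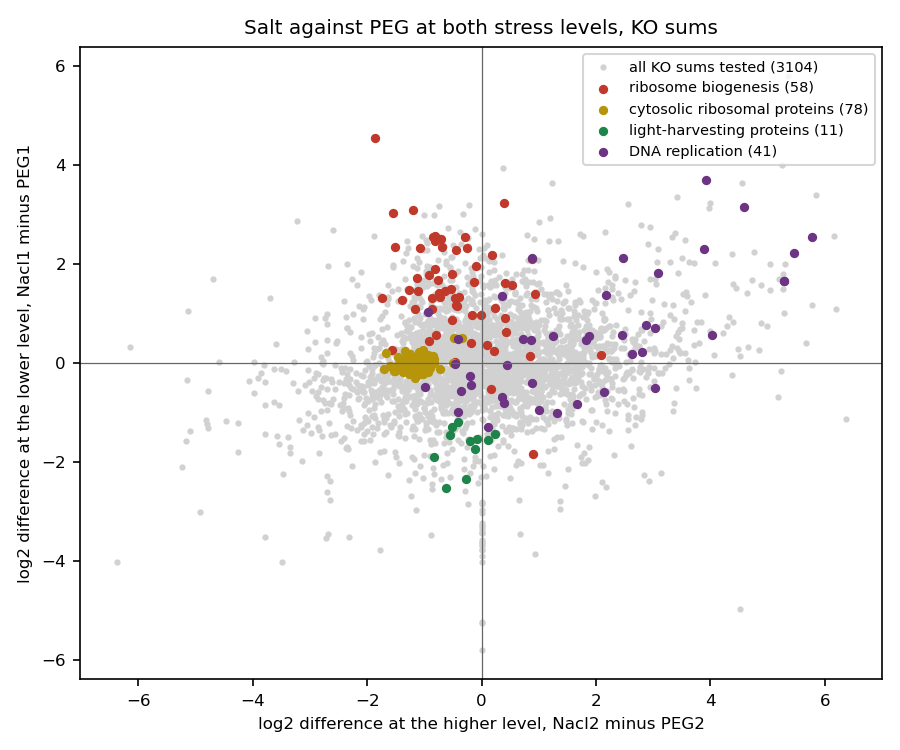
Log2 differences of 3104 KO sums, Nacl2 over PEG2 on the x axis and Nacl1 over PEG1 on the y axis; each point is 1 KO sum, with 4 gene lists in colour. Ribosome biogenesis lies mostly above 0 on the y axis, with a median of 1.43, and left of 0 on the x axis, with a median of -0.52.

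Several groups differed between the doses. The median of ribosome biogenesis was 1.43 at the mild doses and -0.52 at the higher ones, where 1 KO sum was higher in Nacl2 and 12 in PEG2, and for 43 of 58 members the 2 differences differed by the test. Cytosolic ribosomal proteins, without a call at the mild doses, were higher in PEG2 in 55 of 78 KO sums, with a median of -1.17, and 53 members differed between the doses. Light-harvesting proteins had no call at the higher doses (median -0.28), but the difference between the doses passed the test for 2 of 11 members only. Tetrapyrrole synthesis had a median of 0.65 there, and 13 of 21 members differed.

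Other genes were called in the same direction at both doses. NRAMP (-3.80 at the higher doses), MCM5 (3.92) and DCI (3.42) had about the same size as at the mild doses, and the difference between the doses did not pass the test for them (adjusted p = 0.432, 0.632 and 0.842). The Calvin cycle had 5 of 10 KO sums higher in PEG2, with a median of -0.94, and 3 of its 10 members differed between the doses. One of them was PRK, which was not called at the higher doses (-0.71, adjusted p = 0.0886) and changed with the dose (adjusted p = 0.0189). Nitrogen assimilation had 4 of 9 KO sums higher in Nacl2, with a median of 0.91, but NR was not called there (0.91, adjusted p = 0.0988).

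Among single unigenes with an assigned description, the largest differences toward Nacl1 were of green algal transcripts listed at or near 0 in PEG1. ACR12 (Cluster-31803.59909), an amino acid binding ACT domain protein, held 70.6 and 78.5 FPKM in Nacl1, 24.5 and 21.9 in CK18 and 0 in both PEG1 libraries. The acyl-CoA dehydrogenase IBR3 (Cluster-31803.57938) held 43.9 and 43.8 FPKM in Nacl1 and 0.06 and 0 in PEG1, but its CK18 libraries held 0.4 and 58.2, a spread as wide as the difference. The cytochrome P450 55A3 unigene (Cluster-31803.91557) held 24.7 and 32.4 FPKM in Nacl1, 0 in PEG1 and 221 and 210.0 in Nacl2. A unigene annotated as increased DNA methylation 1 (Cluster-31803.24329) held 21.7 and 38.2 FPKM in Nacl1 and 0 in PEG1.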

How the data were processed

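The series comprised 12 RNA libraries of 6 groups. Without a genome, the authors built unigenes with Trinity and Corset, used Bowtie 2 and RSEM for alignment and quantification, and deposited FPKM values with 2 decimals beside an annotation of each unigene (NR, SwissProt, KO). Counts per unigene were not used here, so the depth behind each value is unknown and no counting error is given, while low values are less certain. FPKM is relative to unigene length, so short fragments can reach high values.

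FPKM were divided by a median-ratio factor per library (0.842 to 1.21 for unigenes, 0.696 to 1.38 for KO sums), 0.1 was added and log2 was taken. Features with at least 0.3 FPKM in at least 2 of the 4 libraries compared were tested with limma 3.58.1 in R 4.3.3, two-sided, with an intensity trend and Benjamini-Hochberg adjustment over all features. The fit held the 8 treated libraries of day 18 and had 4 residual degrees of freedom. The contrast was Nacl1 minus PEG1. Tested on simulated data, the fit recovered the sign and size of planted changes, but it called only a minority of them in unigenes and most of them in KO sums, so an uncalled unigene may have changed. Differences from CK18 are medians with no test.

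Named were the 6 unigenes with a SwissProt description and the 8 KO sums with the largest difference in each direction, at a mean of at least 10 FPKM in the higher group and with groups that did not overlap. For each of 38 gene lists up to 2 called members per direction with a mean of at least 5 FPKM were named, or the most abundant member where none was called, and the 8 qRT-PCR unigenes of the study. Lists were built from KO and SwissProt names, and members whose alias did not belong were removed after values were seen. Members, lists and alternatives were chosen with earlier results of these data known. The base quality class was taken from the study's sequencing statistics. Other pseudocounts, filters, scalings, library sets, thresholds, sums and covariates were tried as alternatives. 1 enzyme of the pentose phosphate pathway is not reported here.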

Additional observations from a re-analysis of the deposited data

Results flagged for a closer look

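For 34 of the 71 named KO sums and 16 of the 31 named unigenes tested, the salt against PEG difference differed between the doses by a test of the difference of the 2 differences in limma, with the same limits on adjusted p and fold change as above. Over all features tested 38.8% of KO sums and 19.9% of unigenes did so. Most of these genes were named for their difference at the mild doses, so the shares among them are a description. Many of the 16 unigenes, named below, were also under 0.3 FPKM in both libraries of a mild group. They entered the test only through the other group, so counting them here is a description. All values that follow are the log2 difference of Nacl1 and PEG1 minus that of Nacl2 and PEG2.

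In 17 of the 34 KO sums the 2 differences had opposite signs, and in 4 of these each of the single differences passed its own test. BRX1, a ribosome biogenesis protein, was higher in Nacl1 than in PEG1 by 4.55 and lower in Nacl2 (26.3 and 16.7 FPKM) than in PEG2 (67.7 and 25.2 FPKM), at -1.87, so the value was 6.42 (adjusted p = 0.000416). The organelle ribosomal protein L7/L12 gave 2.60 (1.56 and -1.05), the helicase subunit MCM7 -2.34 (-1.01 and 1.32) and the proteasome subunit PSMA2 -3.62 (-1.83 and 1.79). The mild difference of PSMA2 was not negative from green algal unigenes alone (0.28) or without the unigenes seen in PEG1 only (0.19), so its opposite sign depends on those unigenes.

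In the other 13 at most 1 of the single differences passed its own test. Toward a higher value at the mild doses these were ODC1 at 3.54, FATA at 3.24, SMC4 at 2.08, FAD8 at 1.98, digalactosyldiacylglycerol synthase at 1.78, glgC at 1.59 and sulfite reductase at 1.56. Toward a lower value they were hemL at -3.95, chlP at -3.43, ATG16L at -1.97, ispD at -1.92, ATS1 at -1.91 and glycerol kinase at -1.56. The chlP replicates lay far apart in both PEG groups (212 and 507 FPKM in PEG1 and 9.42 and 57.1 in PEG2), and in each of them replicate 2 was the higher.

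In 17 KO sums the sign was the same at both doses and the size differed. The difference was larger at the higher doses for MCM2 (-3.23), ATP1A (-2.45), GAPDH (-2.13) and neomenthol dehydrogenase (2.36). It was smaller there for FPR3_4 (3.57), TSR2 (2.84), PGD (2.41), speE (1.45), LUT5 (1.19), DHX57 (-2.61), XYL4 (-2.60), actin (-2.30), PPT (-2.01), LHCB5 (-1.91), CDC20 (-1.69), PRK (-1.63) and ATG9 (-1.21).

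Among the unigenes, the iron/zinc purple acid phosphatase gave 4.27, with single differences of 2.82 and -1.45 that both passed the test. The differences also had opposite signs, with at most 1 call, for a BRX1 unigene (Cluster-31803.17620) at 9.78, the increased DNA methylation 1 unigene at 9.48, IBR3 at 8.90 and BCCP at -2.88. The sign was the same for ACR12 at 5.64, purple acid phosphatase 28 at 3.89, melanotransferrin at -7.10, triosephosphate isomerase at -2.83 and pyruvate kinase at -1.35. The 5 actin unigenes and RPL39, listed at 0 in all libraries of the higher doses, gave -11.97, -10.86, -9.71, -9.65, -9.54 and -9.85. These values repeat the mild difference that named them, and their sizes depend on the 0.1 added. Those 5 actin unigenes, RPL39, ACR12, IBR3, melanotransferrin and the increased DNA methylation 1 unigene were under 0.3 FPKM in both libraries of a mild group. Their values are a description.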

How the results depend on the processing

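With 1 library left out, the unigenes higher in Nacl1 ranged from 559 to 5071 (3991 in the report), those higher in PEG1 from 60 to 8730 (7411), KO sums higher in Nacl1 from 194 to 394 (364) and those higher in PEG1 from 65 to 304 (225). Unigenes called in the same direction at both doses ranged from 268 to 3154 (2563) and those whose difference changed with the dose from 2268 to 14816 (13744). The lowest count of KO sums higher in Nacl1, 194, came with the tested features kept fixed. The lowest unigene counts came without a PEG1 library, when the filter of 2 libraries let in fewer PEG1 unigenes. With the tested features kept fixed, an alternative chosen after seeing the data, they ranged from 1284 to 2396 and from 3443 to 5616.

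Unigenes higher in PEG1 numbered 4087 with a pseudocount of 1, 2993 with a mean of at least 1 FPKM and 1834 without the unigenes seen in PEG1 only at day 18. From unigenes with a green algal hit alone the counts were 2654 and 2288, and from sums by NR hit 2239 were higher in Nacl1. The green algal and PEG1-only alternatives for unigenes were chosen after seeing the data. With base quality as a covariate, 2429 unigenes were higher in Nacl1, 1452 were called in the same direction at both doses and 139 KO sums were higher in PEG1. At an adjusted p under 0.01 the counts were 1540 and 3989 unigenes and 86 KO sums higher in PEG1, and without a limit on the fold change 338. The cause of these shifts was not tested, except where fewer features or libraries entered by construction.

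Replicate numbers did not pair the libraries: the correlations of replicate differences between groups lay between -0.043 and 0.054. With a replicate block, 3508 unigenes were higher in Nacl1 and 6876 in PEG1, and 368 and 244 KO sums. At unadjusted p under 0.05 there were 20657 unigenes and 1214 KO sums.

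Of the uncalled named values, the PDC/PDH unigene turned to 0.094 with base quality as a covariate and ranged from -0.34 to 0.24 with a library left out. In the same way the BCCP unigene ranged from -0.92 to 0.089, the KAS II unigene from -0.014 to 1.46 and histone H3 from -0.080 to 0.32. The PAP23 unigene turned to 0.48 in sums by NR hit. ETR turned to 0.54 and PSMA2 to 0.28 from green algal hits, and to 0.57 and 0.19 without the PEG1-only unigenes.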

Other observations

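Enzymes that make purine and pyrimidine nucleotides from small precursors were higher in Nacl1 in 13 of 17 KO sums and higher in PEG1 in 0, with a median of 1.42. This group was chosen after values were seen, and 11.7% of all KO sums were higher in Nacl1. Adenylosuccinate lyase (purB), which acts in purine synthesis, stood at 199 and 182 FPKM in Nacl1 and 18 and 21.3 in PEG1 (log2 difference 3.19, SE 0.28, adjusted p = 0.000627, limma). UMP synthase (UMPS), which makes the first pyrimidine nucleotide, stood at 358 and 440.4 FPKM in Nacl1 and 39.5 and 55.04 in PEG1 (log2 difference 3.004, SE 0.25, adjusted p = 0.000526), and CTP synthase (pyrG) at 241.1 and 271 FPKM in Nacl1 and 58.9 and 52.6 in PEG1 (log2 difference 2.12, SE 0.21, adjusted p = 0.000975). In CK18 the same sums were 48.7 and 52.2, 115 and 112 and 139.9 and 94.9 FPKM. At the higher doses the differences of these 3 were -0.22, -0.32 and 0.05, and the change with the dose passed the test for each (adjusted p = 0.000797, 0.0006 and 0.0018).

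The TOR kinase complex, which in other eukaryotes couples nutrients to ribosome production, had 2 of 3 KO sums higher in PEG1. Over all KO sums 7.25% were higher in PEG1. The kinase itself (FRAP) stood at 21.4 and 16.7 FPKM in Nacl1 and 52.5 and 52.4 in PEG1 (log2 difference -1.55, SE 0.29, adjusted p = 0.00815), its partner GBL at 12.4 and 9.64 FPKM in Nacl1 and 24.3 and 28.4 in PEG1 (log2 difference -1.34, SE 0.25, adjusted p = 0.00759) and RAPTOR at 24.3 and 20.9 FPKM in Nacl1 and 39.3 and 36.7 in PEG1, a difference of -0.83 that was under the fold limit (adjusted p = 0.0368). These genes were also chosen after their values were seen.

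The MYB-related clock transcription factor LHY (K12133), which in land plants peaks around dawn, was 9.29-fold higher in Nacl1, with 519 and 485 FPKM in Nacl1 and 49.3 and 52.5 in PEG1 (log2 difference 3.22, SE 0.18, adjusted p = 0.000224). CK18 held 14.1 and 13.3 FPKM, Nacl2 249.5 and 233 and PEG2 18.9 and 25.2, so all libraries with NaCl lay above all others of day 18 and above CK0 (27.6 and 30.8). Of the 5 clock and light receptor KO sums that could be tested, the only other one within the limits was the pseudo-response regulator PRR7. It held 0.2 and 0.16 FPKM in Nacl1 and 1.9 and 0.79 in PEG1. Both Nacl1 libraries were under 0.3 FPKM, so this is a description. PRR7 could not be tested from green algal unigenes alone. The cryptochromes, which sense blue light, were not called. Whether the NaCl cultures were harvested at another hour of the light-dark cycle was not tested.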
